A study of Mus musculus with 4 samples.

Results

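The miRNA machinery is itself encoded by mRNAs that miRNAs can bind, and this account describes the chimeric reads found on 8 of those genes in overloaded mouse muscle. They were the Argonautes Ago1, Ago2, Ago3 and Ago4, which hold the miRNA, the scaffold proteins Tnrc6a, Tnrc6b and Tnrc6c, and Dicer1, the enzyme that cuts precursor hairpins into miRNAs. Every line of the peak files that overlapped the GRCm38 (mm10) RefSeq span of a listed gene, on that gene's strand, was taken with every miRNA. A line is 1 peak with 1 miRNA. The 8 genes held 271 of 93468 lines in the control library and 258 of 100897 lines in the mimic library, among 7983 genes with reads in either library. No line lay on the opposite strand of a listed gene, and no line was shared with another gene of the same strand. Of 49997 RefSeq genes, 13244 had no strand in the sources used here. They were left out of this overlap and of all gene counts and ranks.

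The libraries came from plantaris muscle of adult male C57BL/6J mice of 5 months. All had 10 days of mechanical overload (MOV), in which surgical removal of part of the synergist muscles on both sides loads the plantaris. The MOV control muscle received a control lentivirus (left plantaris) and the MOV mimic muscle a lentivirus that makes a miR-1a-3p mimic (right plantaris). Both vectors carried a mouse CMV promoter, which is not restricted to muscle fibres, and a TurboGFP reporter. The mimic was made on top of the muscle's own miR-1, so the mimic group is not a model with the native miRNA removed. Each group had 1 eCLIP-seq library, and the sources used here do not state whether both muscles came from the same animal. With 1 library per group no test across samples exists, so the intervals given are 95% intervals for counting error only and say nothing of the spread between animals.

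In Chimeric eCLIP-seq, Ago2 is crosslinked and immunoprecipitated, and the miRNA it holds is ligated to the target RNA beside it, so that a chimeric read names both partners. A miRNA pairs with its target mainly through its seed, bases 2 to 8 from the 5′ end. Argonaute then recruits a TNRC6 protein (GW182), which brings the deadenylases that shorten the poly(A) tail. In other cells let-7 and miR-103/miR-107 are known to target Dicer1. A chimeric read reflects both how much of an mRNA is present and how often it is bound. Fewer copies of an mRNA and less binding per copy therefore cannot be told apart here.

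The files held 232408 chimeric reads in 20754 peaks in the control library and 259207 reads in 21872 peaks in the mimic, and the ratio of these totals, mimic to control, was 1.12. Reads of skeletal muscle genes were abundant, with 17514 and 23569 reads for Ttn and 5140 and 4015 for Myh4, the fast myosin. Markers of liver (Alb) and heart (Myh6) were listed in neither library.

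The sequences that carry the main results are the seeds of the miRNAs and the seed matches on the 8 genes' transcripts. The mature miRNAs are from RefSeq (GRCm38.p6), printed 5′ to 3′ with the seed in capitals. The let-7 group was the leading group on Dicer1, and miR-26 or miR-23 led a peak that the TNRC6 genes share. Over all reads of the 3 TNRC6 genes, miR-133-3p had the most, 49.3 in the control library and 79.0 in the mimic. In the list, miR-133b-3p and miR-206-3p stand for the muscle groups that they share with miR-133a-3p and miR-1a-3p.
let-7c-5p: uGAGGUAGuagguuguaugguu
let-7f-5p: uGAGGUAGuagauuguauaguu
miR-26a-5p: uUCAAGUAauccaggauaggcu
miR-26b-5p: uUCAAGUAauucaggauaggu
miR-23a-3p: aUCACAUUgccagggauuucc
miR-133b-3p: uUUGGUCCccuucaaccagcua
miR-206-3p: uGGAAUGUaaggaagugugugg
miR-30c-5p: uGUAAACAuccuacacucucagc
miR-103-3p: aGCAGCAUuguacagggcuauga

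Within each group the seed was identical, and the 2 let-7 and the 2 miR-26 sequences differed only in the bases outside it. Reads of miRNAs with the same seed were summed into a seed group, since their matches in a target cannot be separated.

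TNRC6 genes held most of the reads and the Argonautes few. In the control library Tnrc6b had 155 reads (132 to 181), Tnrc6a 75.4 (59.0 to 94), Dicer1 50.3 (37.1 to 65.9), Tnrc6c 48.6 (36.3 to 64.8) and Ago2 20.7 (13.0 to 32.1). Among the 6609 genes with reads in the control, Tnrc6b ranked 120, Tnrc6a 279, Dicer1 506, Tnrc6c 523 and Ago2 1437. The intervals of Dicer1 and Tnrc6c overlapped, so their order is not settled. Ago3 had 4.73 reads and neither Ago1 nor Ago4 was listed. Since the files list called peaks, a gene that is not listed may still have carried reads below the peak caller's threshold.

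Set against length, Tnrc6a and Tnrc6b changed places, and so did Tnrc6c and Dicer1. Per kb of the longest annotated transcript, the control values were 9.56 reads for Tnrc6a, 9.12 for Tnrc6b, 5.49 for Tnrc6c, 5.11 for Dicer1 and 2.57 for Ago2. Tnrc6a and Tnrc6b, which differed in reads, were thus close per kb, because the Tnrc6b transcript is the longer.

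In the mimic library Tnrc6b had 201 reads (174 to 231), Tnrc6a 94.2 (76.0 to 115), Dicer1 81.2 (64.3 to 101), Tnrc6c 54.9 (41.4 to 71.6) and Ago2 4.87 (1.62 to 11.7). Ago3 had 6.99 reads, Ago4 4.97 and Ago1 none. The ratio of mimic to control reads was 1.61 for Dicer1 (1.12 to 2.35), 1.29 for Tnrc6b (1.05 to 1.61), 1.25 for Tnrc6a (0.915 to 1.72) and 1.13 for Tnrc6c (0.750 to 1.68). Only for Dicer1 did the interval lie above the ratio of library totals, and by little, as the ratio divided by that of the totals was 1.45 (1.01 to 2.11). The 8 genes together had 355 reads in the control library and 448 in the mimic, which gives a ratio of 1.26 (1.1 to 1.45), or 1.13 (0.982 to 1.30) after division by the ratio of the totals.

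Ago2, the Argonaute that the antibody captures, was the exception in direction. Its reads were 20.7 in 7 peaks in the control library and 4.87 in 2 peaks in the mimic, which gives a ratio of 0.236 (0.0701 to 0.649). None of its 7 control peaks, all under 8 reads, overlapped a mimic peak. Over all genes 31.4% of control peaks under 3 reads and 62.7% of those of 3 to under 10 reads did so. A gene was called different where its ratio, divided by the ratio of the totals, was at least 2 or at most 0.5 and its mean was at least 10 reads. By this rule 4.97% of the 2775 genes with that mean were called higher in the mimic and 7.06% lower. Of the 8 genes, 5 had such a mean. Ago2 was called lower, with a scaled ratio of 0.211 (0.0629 to 0.582), and no other listed gene was called in either direction. Ago2 reached that mean only through the control library. There it had 24 lines, 15 of them under 1 read and none of at least 3 reads. With lines of at least 3 reads alone, the ratios before scaling were 7.71 for Dicer1, which then rests on 1 control line, and 2.63 for Tnrc6a.

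**Figure D1:**
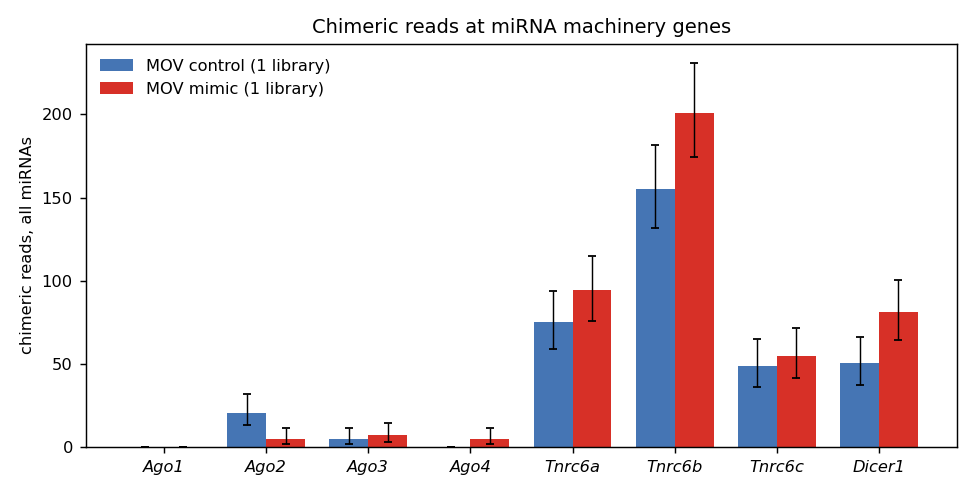
Chimeric reads of all miRNAs at each gene (y axis) in the MOV control and MOV mimic libraries, 1 library each, with bars from 0 and 95% Poisson intervals as error bars. Tnrc6b stands highest at 155 and 201 reads, and Ago2 is the gene whose mimic bar is far below its control bar.

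**Figure D2:**
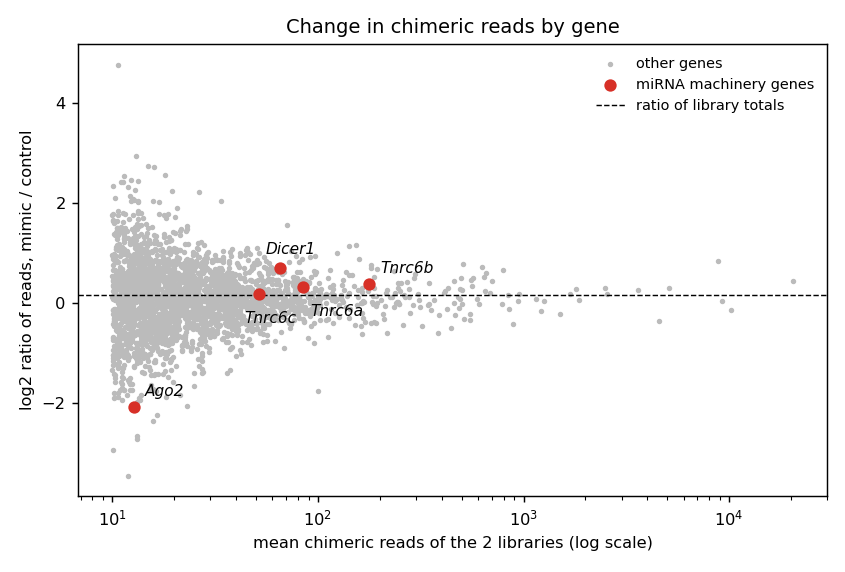
Ratio of mimic to control reads (log2, y axis) against mean reads (log scale, x axis) for genes of at least 10 mean reads with reads in both libraries. The dashed line is the ratio of library totals, 1.12. Tnrc6a, Tnrc6b, Tnrc6c and Dicer1 lie within the cloud of genes of like mean reads, and Ago2 lies near its lower edge.

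Dicer1 was read mainly by let-7. The let-7 group gave 22.8 of its 50.3 reads in the control, a share of 45.3% (31.8 to 60.7, Clopper-Pearson), and 40.1 of 81.2 in the mimic, a share of 49.4% (38.1 to 60.7). Outside the mitochondrial chromosome and the gene Rn18s-rs5 the control library held 200676 reads and the mimic 224427. Over these reads the let-7 share was 9.14% and 8.86%. Shares of all reads given below leave out the mitochondrial chromosome and Rn18s-rs5 too. Among genes of at least 30 reads, 57 of 950 in the control library and 48 of 1007 in the mimic had a higher let-7 share than Dicer1. The let-7 reads were spread over family members. In the control let-7f-5p had 7.01 reads and let-7c-5p 5.04, and in the mimic they had 10.8 and 10.5.

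These reads fell largely in a pair of adjoining peaks on chr12. The peak at chr12:104702764-104702868 held 14.2 reads in the control, 11.0 of them let-7, and its mimic counterpart at chr12:104702760-104702891 held 28.4 reads, 23.4 of them let-7, a ratio of 2.01 (1.02 to 4.1) for all reads. Its neighbour at chr12:104702666-104702763 held 13.7 reads with 9.92 of let-7, and the mimic counterpart at chr12:104702664-104702759 held 14.5 with 10.9 of let-7, a ratio of 1.05 (0.442 to 2.26). The difference between libraries in let-7 reads at Dicer1 thus sat mostly in the upstream peak of the pair, though the intervals of both peaks overlap.

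The pair lay 14926 to 15128 nt from the annotated 3′ end of the gene in the control library, well outside the last 3851 nt that the 3′UTR of the annotated transcript spans. The longest Dicer1 transcript of GENCODE vM1 (27 exons, coding from base 250 to 6000) holds 4 matches to the let-7 seed, the letters CTACCTC, all in the coding sequence. They are shown because they are the only places on this transcript where a full let-7 seed can pair. Each is printed 5′ to 3′ with 15 bases before and 1 base after the match, which is in capitals, and the number is the first base of the match counted from 1 at the transcript's 5′ end.
Dicer1 2884: tcagcctactgtgttCTACCTCt
Dicer1 3890: tacctgtacaaccaaCTACCTCa
Dicer1 3998: ggaacgctaacacatCTACCTCa
Dicer1 5370: agatgcgattttggaCTACCTCa

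The matches at 3890 and 3998 both lie in exon 21, a coding exon of 781 nt, 108 nt apart. The midpoints of the let-7 peak pair lay 101.5 nt apart in the control library and 114 nt apart in the mimic. Of the other matches, that at 2884 is in exon 16 and that at 5370 is in exon 24. No GRCm38 exon annotation was used here, so the peaks could not be placed on exons and the spacings are given side by side only. CTACCTC is present in 19.1% of the longest transcripts of 22611 genes, and shares 6 letters with the miR-196a-5p match ACTACCT.

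The other group known to target Dicer1, miR-103/miR-107, was sparse. It had 0.208 reads in the control library and 3.92 in the mimic, a share of 0.414% (0 to 7.11) and 4.83% (1.36 to 12.2), against 0.141% and 0.133% of all reads. A higher share was found in 58 of 950 genes in the control library and in 4 of 1007 in the mimic. The reads lay mostly in a peak at chr12:104703008-104703062, which held 6.35 reads, 2.94 of them miR-103/miR-107, against 0.542 in the overlapping control peak, and the interval of this ratio, 0.728 to 276, allows no direction. Dicer1 also held a miR-30-5p peak of 5.50 reads at chr12:104722283-104722341 in the control. The overlapping mimic peak was led by miR-133-3p with 3.8 reads and had 0.908 of miR-30-5p. At chr12:104690305-104690434, within the 3′UTR distance, the mimic held 8.43 reads led by miR-26 with 4.0, and the control peak there held 4.12 led by miR-29 with 2.0. The Dicer1 transcript holds no match to the miR-26 seed. A miR-29 match lies 2650 to 2656 nt from the transcript's end. The mimic peak lay 2565 to 2694 nt and the control peak 2626 to 2678 nt from the gene's end.

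**Figure D3:**
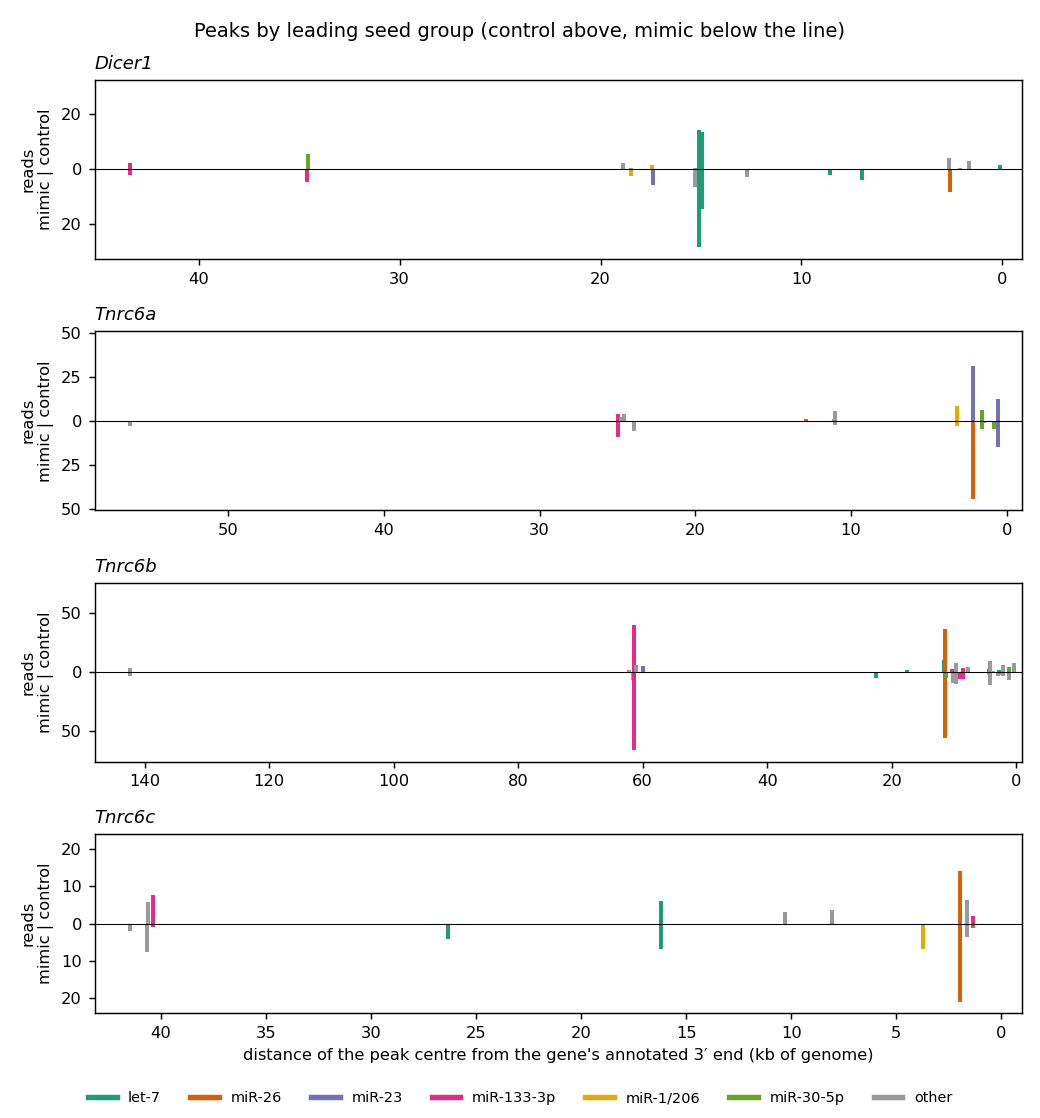
Peaks of Dicer1, Tnrc6a, Tnrc6b and Tnrc6c by the distance of their centre from the gene's annotated 3′ end (kb of genome, x axis), with reads drawn up for the control and down for the mimic (y axis) and coloured by leading seed group. Dicer1 shows its let-7 pair at about 15 kb in both libraries, and each TNRC6 gene shows a tall peak of miR-26 or miR-23 near its 3′ end.

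All 3 TNRC6 genes shared a peak read by miR-26 and miR-23 in the 3′ part of the gene. On Tnrc6a it was at chr7:123193075-123193192 with 30.8 reads in the control, 10.8 of miR-23 and 5.38 of miR-26, and at chr7:123193066-123193192 with 44.3 reads in the mimic, 11.9 of miR-23 and 15 of miR-26. On Tnrc6b it was at chr15:80929644-80929771 with 36.6 reads in the control, 5.75 of miR-23 and 24.5 of miR-26, and at chr15:80929656-80929776 with 56.3 reads in the mimic, 7.10 of miR-23 and 36.9 of miR-26. On Tnrc6c it was at chr11:117761410-117761500 with 14.2 reads in the control, 0.864 of miR-23 and 10.3 of miR-26, and at chr11:117761415-117761503 with 20.8 reads in the mimic, 5.90 of miR-23 and 13.6 of miR-26. On Tnrc6a miR-23 exceeded miR-26 in the control and was below it in the mimic, on its paralogs miR-26 exceeded miR-23 in both libraries, and Tnrc6c had hardly any miR-23 in the control.

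Summed over the 3 genes, this site held 81.6 reads in the control library and 121 in the mimic, which were 29.2% and 34.7% of all their reads. The ratio was 1.49 (1.11 to 1.98), and its lower end was below the ratio of library totals. The miR-26 reads at the site were 40.2 and 65.5 (ratio 1.63, 1.1 to 2.51), and the miR-23 reads 17.4 and 24.9 (ratio 1.43, 0.763 to 2.90). Of all peaks with at least 10 reads off the mitochondrial chromosome, 17 of 3036 in the control (0.560%) and 15 of 3196 in the mimic (0.469%) had miR-26 and miR-23 as their leading pair of groups. Those of Tnrc6a and Tnrc6b were among them in the control, and those of Tnrc6a and Tnrc6c in the mimic. Holding some reads of both groups was common, at 12.4% and 14.6% of these peaks.

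The transcripts carry the matching sequences. The 3′UTR of each TNRC6 transcript holds a match to the miR-26 seed (TACTTGA) followed downstream by a match to the miR-23 seed (AATGTGA). They are printed in the same way as the Dicer1 matches, since they show where both miRNAs of the shared peak can pair.
Tnrc6a 5700, miR-26: acatatcagtttgaaTACTTGAa
Tnrc6a 5727, miR-23: gcaggccaatattatAATGTGAa
Tnrc6b 5671, miR-26: atatcactcttgaaaTACTTGAa
Tnrc6b 5703, miR-23: ccaacctagaaagacAATGTGAa
Tnrc6c 6841, miR-26: tatcaaacatgcaaaTACTTGAa
Tnrc6c 6868, miR-23: gcaggccaataccgaAATGTGAa

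The miR-23 match began 27 bases after the miR-26 match on Tnrc6a and Tnrc6c and 32 bases after it on Tnrc6b. Every match of the 6 was followed by an a, the letter opposite the first base of a miRNA. A pair of these matches within 50 nt, a distance chosen after the spacing was seen, occurred in the 3′UTR of 29 of 19815 genes (0.146%), and all 3 TNRC6 genes were among the 29. Alone, TACTTGA is present in 12.6% and AATGTGA in 22.5% of the longest transcripts, and 0.697% and 1.14% of all 100 nt windows of 3′UTR hold them. As paralogs, the 3 genes are not independent cases in the count of 29. The longest run of identical bases shared by the transcripts of any pair of TNRC6 genes was 24 nt, and within 100 nt at this site it was 15 nt. Likeness with mismatches was not measured, and whether a read of one paralog could be listed on another was not tested.

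By distance from the 3′ end the matches and the peaks coincided. On Tnrc6a the miR-26 match lies 2181 to 2187 nt and the miR-23 match 2154 to 2160 nt from the transcript's end, and the control peak lay 2104 to 2221 nt from the end of the gene. On Tnrc6b the matches lie 11366 to 11372 and 11334 to 11340 nt from the end, and the peak 11315 to 11442 nt. On Tnrc6c they lie 2000 to 2006 and 1973 to 1979 nt from the end, and the peak 1939 to 2029 nt. The gene ends are those of GRCm38 RefSeq and the transcripts those of an earlier build, so these are distances set side by side and not a placement of reads on the transcript.

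**Figure D4:**
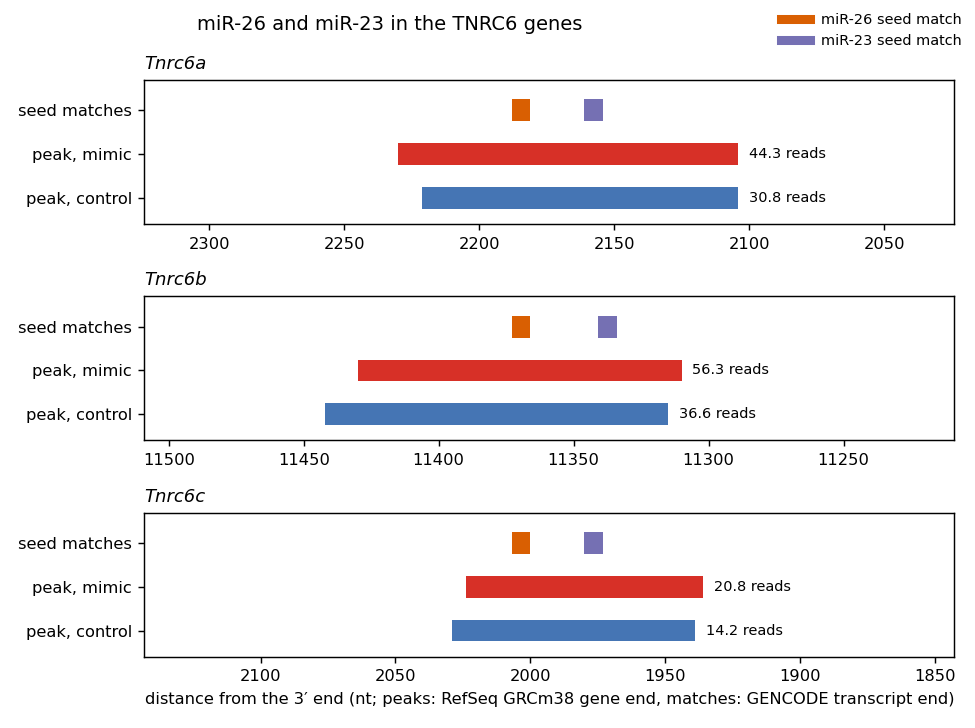
The shared peak of each TNRC6 gene in the control (blue) and mimic (red) library and the miR-26 (orange) and miR-23 (purple) seed matches, by distance from the 3′ end in nt (x axis). Both matches lie within the span of the peak in all 3 genes, with miR-26 upstream of miR-23.

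The rest of each TNRC6 gene differed between paralogs. The tallest peak of Tnrc6b was not the shared site but a miR-133-3p peak far upstream of it. At chr15:80879666-80879815 it held 39.9 reads in the control, 30.1 of miR-133-3p, and at chr15:80879645-80879817 it held 66.3 in the mimic, 57.2 of miR-133-3p. The ratio of all its reads was 1.66 (1.1 to 2.51), that of miR-133-3p 1.90 (1.2 to 3.06). The name miR-133a-3p took 26.1 and 53.2 of these reads. miR-22-3p, at 3.70 and 7.99 reads, was the next group in both libraries. The peak lay 61271 to 61420 nt from the 3′ end of the gene in the control, outside the 3′UTR distance of 11610 nt.

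Tnrc6b also held a let-7 peak of 10.1 reads, 8.37 of them let-7, at chr15:80929473-80929519 in the control, just upstream of the shared site. No mimic peak overlapped it, and it was the only control peak of at least 10 reads on the 8 genes of which this was true. The longest Tnrc6b transcript holds no match to the let-7 seed. A peak led by miR-466i-5p at chr15:80936911-80936981 held 9.14 reads in the control, and the mimic peak there 10.5, with 4.90 and 7.94 reads of miR-466i-5p.

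Tnrc6a had a second miR-23 peak near its end. It held 12.1 reads, 8.74 of miR-23, at chr7:123194690-123194793 in the control library and 15.1 reads, 11.2 of miR-23, at chr7:123194690-123194778 in the mimic. A further match to the miR-23 seed lies at base 7324 of the transcript, 557 to 563 nt from its end, and the control peak lay 503 to 606 nt from the gene's end. It is shown for comparison with the matches of the shared site.
Tnrc6a 7324, miR-23: caatcaccctgagatAATGTGAg

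With both sites, miR-23 gave 25.9% of the Tnrc6a reads (17.1 to 38.1) in the control library and 24.7% (16.2 to 34.4) in the mimic, against 3.07% and 2.91% of all reads. Among genes of at least 30 reads, 25 of 950 and 19 of 1007 had a higher miR-23 share. As a share of lines in place of reads, miR-23 made up 8.20% and 9.09% of Tnrc6a. miR-30-5p was next to be found at a place with its seed match (TGTTTAC, in 16.5% of transcripts). The peak at chr7:123193658-123193707 held 6.40 reads, 5.83 of miR-30-5p, in the control, its mimic counterpart 4.95, nearly all of miR-30-5p, and 1 of the 4 matches of the transcript lies at the same distance from the end.

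Tnrc6c had the highest miR-26 share of the TNRC6 genes, 21.3% (10.2 to 34.3) in the control library and 26.7% (16.1 to 41.0) in the mimic, against 3.99% and 4.06% of all reads. The shares of Tnrc6b were 15.7% (10.2 to 22.2) and 18.4% (13.3 to 24.5), and those of Tnrc6a 9.44% (3.84 to 18.3) and 15.9% (9.22 to 25). These intervals overlapped, so the order of the paralogs is not settled. Tnrc6c also held a let-7 peak of 6.09 reads at chr11:117747210-117747287 in the control library and of 6.87 at chr11:117747201-117747274 in the mimic, of which 4.91 and 5.86 were let-7. Its transcript has 1 match to the let-7 seed, in coding exon 18 of 22, which is shown because it too is a coding match.
Tnrc6c 5473, let-7: ccaggatgtcaaccgCTACCTCc

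A peak led by miR-15/miR-16 on Tnrc6c held 5.69 reads at chr11:117722794-117722855 in the control library and 7.54 at chr11:117722767-117722851 in the mimic. The reads of miR-133-3p on Tnrc6c went the other way to those on Tnrc6b. At chr11:117723057-117723118 there were 7.69 reads, all miR-133-3p, in the control library and 0.812 in the overlapping mimic peak, with an interval of the ratio from 0.0028 to 0.932. Over the whole gene they were 11.0 and 3.09 (ratio 0.282, 0.049 to 1.03).

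**Figure D5:**
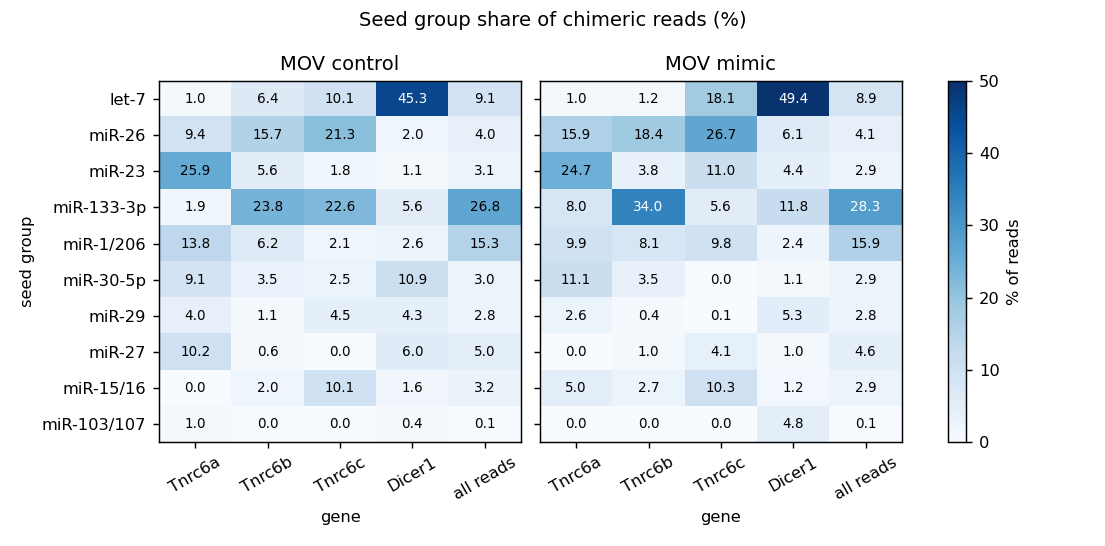
Share of each gene's chimeric reads (%, cell values and colour) taken by 10 seed groups (rows) on the 4 genes with the most reads and over all reads (columns), for MOV control and MOV mimic. The column of all reads leaves out the mitochondrial chromosome and Rn18s-rs5. let-7 fills 45.3% and 49.4% of Dicer1, miR-23 is largest on Tnrc6a, and miR-26 is above its share of all reads on each TNRC6 gene in both libraries.

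The Argonaute genes had few reads. Ago2 in the control had let-7 as its leading group with 5.72 reads, a share of 27.7% (11.3 to 52.2), and miR-30-5p with 3.55. The let-7 reads were in a peak of 7.67 reads at chr15:73101683-73101774, which lay 58 to 149 nt from the gene's 3′ end. The only match to the let-7 seed on the Ago2 transcript lies 100 to 106 nt from its end, and it is shown because it falls at the same distance as the peak.
Ago2 7925, let-7: acagatgcataaaagCTACCTCt

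The miR-30-5p peak of Ago2 at chr15:73103196-73103257, with 3.55 reads, lay 1571 to 1632 nt from the end, and a miR-30-5p match lies at 1601 to 1607 nt. The second tallest control peak, at chr15:73106137-73106197, held 4.74 reads of 5 miRNAs, none above 1.13. In the mimic library neither let-7 nor miR-30-5p was listed on Ago2. Its mimic peaks were at chr15:73138077-73138105 with 2.81 reads, led by miR-133-3p, and at chr15:73107271-73107314 with 2.06 reads.

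Ago3 had 2 peaks in the control library and 3 in the mimic, none above 2.54 reads. None overlapped between libraries, and at this height 31.4% of all control peaks did. The single listing of Ago4 was a peak of 4.97 reads of miR-466i-5p at chr4:126499580-126499659 in the mimic. Matches to the miR-26 seed on the Ago3 and Ago4 transcripts, 1 each, had no peak at their distance.

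Since the vector made a miR-1 mimic, the miR-1/miR-206 group was followed on all 8 genes. It had 24.2 reads in the control library and 35.3 in the mimic (ratio 1.46, 0.843 to 2.56). Its share of their reads was 6.81% (4.38 to 9.89) and 7.89% (5.50 to 10.7). This was below its share of all reads outside the mitochondrial chromosome and Rn18s-rs5, 15.3% and 15.9%. The name miR-1a-3p had 14.4 and 25.1 reads on these genes (ratio 1.74, 0.893 to 3.72), and miR-206-3p 9.78 and 10.2. Over all peaks the ratio of miR-1a-3p reads was 1.31 and that of miR-206-3p reads 0.947. The methods also describe a miR-1-specific form of the assay, made with a primer for miR-1. Whether the listed peaks include its reads was not established here, which limits what the miR-1 shares and ratios can mean.

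The added miR-1a-3p reads lay mainly in Tnrc6b and Tnrc6c. At the shared site of Tnrc6b there were 0.967 reads of miR-1a-3p in the control library and 8.43 in the mimic (ratio 8.72, 1.07 to 355). This made miR-1/miR-206 the second group of that peak in the mimic. The only miR-1/miR-206 seed match of the Tnrc6b transcript is in the coding sequence, 12080 to 12086 nt from its end. The mimic peak did not cover it, at 11310 to 11430 nt from the gene's end. On Tnrc6c a mimic peak at chr11:117759646-117759742 had 4.73 reads of miR-1a-3p, with no control peak there. On Tnrc6a the miR-1/miR-206 peak at chr7:123192068-123192153 went from 8.6 reads in the control to 2.93 in the mimic (ratio 0.341, 0.058 to 1.34). These places were picked from many after their values were seen.

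miR-133-3p was the largest group outside the mitochondrial chromosome and Rn18s-rs5, at 26.8% and 28.3% of those reads. It gave 15.3% (11.6 to 19.4) and 20.2% (16.5 to 24.1) of the reads on the 8 genes, and most of these were on Tnrc6b. On Dicer1 it gave 5.62% (1.25 to 16.5) and 11.8% (6.08 to 21.5).

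Peaks were compared between the libraries by position. Of the 59 control peaks of the 8 genes, 30 overlapped a mimic peak by at least 1 nt (50.8%, 37.5 to 64.1), and the share over all control peaks was 53.4%. It depended on height. On the 8 genes 4 of 23 peaks under 3 reads, 19 of 28 of 3 to under 10 reads, and 7 of 8 of 10 or more reads were overlapped, and over all peaks these shares were 31.4%, 62.7% and 95.8%. By gene, 7 of 8 control peaks of Tnrc6c, 8 of 12 of Dicer1, 6 of 10 of Tnrc6a, 9 of 20 of Tnrc6b and 0 of 7 of Ago2 were overlapped. The leading seed group was the same in 19 of the 30 pairs (63.3%), and in 75.9% of all overlapping pairs off the mitochondrial chromosome. The 7 pairs of at least 10 mean reads had more reads in the mimic in every case, with a median ratio of 1.47, whereas 58.9% of all such pairs did, with a median of 1.09. These ratios were not scaled to the library totals, whose ratio was 1.12. A Dicer1 pair, at 1.05, was below that ratio, and the intervals of all 7 reached below it. The 7 lay on Dicer1 and the TNRC6 genes only, some side by side, and are not independent cases.

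Leading groups and seed matches were also compared over all peaks whose distance from the gene's end fell within the length of the 3′UTR and whose leading group had a sequence. Of these, 12 of 26 in the control library and 9 of 21 in the mimic covered the distance of a match to their leading group. Of those with at least 10 reads, 4 of 4 did in each library. The Tnrc6b let-7 peak of 10.1 reads in the control was left out of this count. It reached 11613 nt from the gene's end, past the 3′UTR length of 11610 nt, and the transcript has no let-7 match. For comparison, a match to a given leading group of the counted tall peaks is in about 1% of 100 nt windows of 3′UTR (medians of 0.917% and 0.697% over those groups). Among all peaks of at least 3 reads the counts were 11 of 16 and 9 of 14.

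The other genes of the miRNA pathway were looked up in a list of 68 names. Zcchc11 and Zcchc6 were not found in RefSeq under these names and could have no reads. They are older symbols of Tut4 and Tut7, which the list also holds, so the 68 names count these genes under both symbols. Of the 68 names, 58 had reads in either library. A mean of at least 10 reads was found for 35, with a median ratio of 1.02, against 1.06 over all genes with that mean. By the fold rule 2 of the 35 were called higher in the mimic and 3 lower, beside 4.97% and 7.06% of all genes with that mean. Without division by the ratio of library totals 1 was called lower, and Patl1 and Cnot6l were not. Cnot2, a subunit of the CCR4-NOT deadenylase, had 3.0 and 23 reads (ratio 7.66, 2.32 to 39.9), and Tut4, a uridylyl transferase that tails let-7 precursors, 6.59 and 16.2 (ratio 2.46, 0.890 to 6.57). Lower were Pabpc1, the cytoplasmic poly(A)-binding protein, with 36.8 and 17.6 reads (ratio 0.478, 0.261 to 0.876), Patl1, a decapping factor, with 22.1 and 11.4 (ratio 0.514, 0.219 to 1.08), and Cnot6l, a deadenylase of CCR4-NOT, with 15.4 and 8.52 (ratio 0.552, 0.232 to 1.46). Of these 5, the intervals of Cnot2 and Pabpc1 excluded a ratio of 1. The 5 were picked by the same reads, so their intervals add no support to the calls. Cnot2, Tut4 and Cnot6l reached a mean of 10 reads only through the library where they were higher.

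By role, the deadenylation genes (14 of 15 with reads) held 397 and 374 reads, and the loading factors and chaperones (6 of 7) 483 and 428. The Microprocessor and export genes held 171 and 150, and the Dicer partners 1.97 and 0. More reads in the mimic were held by the Argonaute modifiers (119 and 159), the repression and decapping genes (133 and 151) and the tailing, turnover and processing genes (178 and 217). The sums by role were not scaled to the library totals, whose ratio was 1.12, and have no intervals, so they set no direction by role. The chaperone Hspa8 had 244 and 248 reads, of which 184 in each library were of miR-15/miR-16, and Hsp90ab1 had 189 and 137. Btg2, which brings deadenylases to mRNAs, had 205.8 and 155 reads led by miR-27, and its relative Tob1 69.1 and 85.9 led by miR-133-3p. Ddx5, a helicase of the Microprocessor, had 110 reads in each library, led by miR-30-5p. The kinase Csnk1a1, a modifier of Argonaute, had 47.2 and 63.3, and the RNA-binding protein Fxr1 72.7 and 98.7. Drosha, the nuclease that releases hairpins, and Tarbp2, a Dicer partner, were listed in neither library, and Dgcr8, the partner of Drosha, had 4.42 reads in the control alone.

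Likeness of the seed group profile was measured by cosine over 467 groups, with both libraries summed, against 444 genes of at least 50 reads in each library. The genes most like Dicer1 were Sh3glb1 (0.971), Zfhx4 (0.970) and Bach1 (0.969), those most like Tnrc6b were Tob1 (0.952), Atp1b1 (0.928) and Kif1b (0.908), and those most like Tnrc6a were Tnks2 (0.836), Zwint (0.833) and Ssh2 (0.831). The median cosine was 0.242 for Dicer1, 0.526 for Tnrc6b and 0.352 for Tnrc6a. Tnrc6a and Tnrc6b had a cosine of 0.519 with each other, and each had a lower one with Dicer1, 0.210 and 0.320. Tnrc6c and the Argonautes had too few reads for this comparison.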

How the data were processed

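The authors deposited, for each eCLIP-seq library, a list of peaks with a miRNA and an estimated count of chimeric reads, not scaled to depth. Per the submitters' processing notes UMI-tools 1.1.1, cutadapt 3.2, STAR 2.7.7a, Bowtie 1.2.3 and HOMER 4.11 were used, and the methods name CLIPper for peaks. How fractional counts arose is not given in the sources used here. The methods name mm9 and the labels mm10. Of the peaks, 98.3% (control) and 98.2% (mimic) lay in a GRCm38 gene on their own strand, and 35.8% and 35.9% in one of mm9, so GRCm38 was used.

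The MOV control and MOV mimic libraries (1 each) were compared; the 2 input libraries were not analysed here. Reads were summed per RefSeq (GRCm38.p6) gene span and strand; the strand of Ago2 came from GENCODE vM1 by name. Of 659 miRNA names, 543 (59.9% of reads) were grouped by bases 2 to 8 of their sequence, 8 (36.5%) by family name and 108 (3.60%) stood alone. The sequence of the peaks was not read, because no GRCm38 genome was used. Seed matches were searched on the sense strand of the longest GENCODE vM1 transcript of each gene. Among the letters searched, those of miR-15/miR-16 (TGCTGCT) and miR-103/miR-107 (ATGCTGC) overlap, as do those of miR-130/miR-301 (TTGCACT) and miR-148/miR-152 (TGCACTG). Intervals are exact at 95% on reads rounded to whole numbers (Poisson for sums, Clopper-Pearson for shares, conditional binomial for ratios) and cover counting error only. The ratio, its interval and the calls were tested on simulated whole counts with expected control counts of at least 10. That simulation did not cover fractional lines or the summing of lines into genes. Python 3.11.15, pandas 2.3.3, NumPy 2.4.6, SciPy 1.17.1 and matplotlib 3.10.9 were used.

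The members, gene lists and seed groups were chosen with earlier results of these data known. Named items are the 8 genes, their 5 leading seed groups, their 3 tallest peaks per library, fixed seed groups, pathway genes of at least 50 reads in either library or past the fold, and the 3 likest genes; places of miR-1a-3p, the Tnrc6b let-7 peak and the pathway genes without reads were added after their values were seen. Alternatives were the depth scaling, the minimum reads per line, the gene assignment, the tallest peak left out, lines in place of reads, the grouping of miRNAs and the overlap.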

Additional observations from a re-analysis of the deposited data

How the results depend on the processing

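No paired analysis was possible because the labels give 1 library to each group. Counting lines in place of reads reversed the ratio of the 8 genes together to 0.952, that of Tnrc6b to 0.935 and that of Tnrc6a, from 1.25, to 0.902, and the cause was not tested. With lines of at least 3 reads the ratio was 1.93 for the 8 genes, 7.71 for Dicer1, 2.63 for Tnrc6a and 1.62 for Tnrc6b, the lines left were 19 in the control library and 34 in the mimic (115 and 113 at a minimum of 1 read, against 271 and 258), and Ago2 had no line in either library. The let-7 share at Dicer1 became 30.6% and 37.1% as a share of lines, 100% (of 1 line) and 65.8% with lines of at least 3 reads, and 10.0% and 12.9% for let-7c-5p alone, in the control library and mimic. The miR-26 share at the 3 TNRC6 genes, 15% and 19.0% of reads, became 5.18% and 4.37% of lines, 27.8% and 30.9% with lines of at least 3 reads, and 11.1% and 15% for miR-26a-5p alone. The miR-23 share at Tnrc6a became 8.20% and 9.09% of lines and 79.1% and 46.7% with lines of at least 3 reads. A 50% reciprocal overlap lowered the overlapped control peaks from 50.8% to 30.5% (42.0% over all peaks). Of the pathway genes, 1 was called higher with lines of at least 3 reads, and 1 was called lower both with that minimum and without scaling by the library totals. The ratio of Ago2 stayed between 0.159 and 0.236 in the alternatives that gave one. Without the tallest peak of each gene the ratio was 1.13 for the 8 genes and 1.46 for Dicer1. Lines under 1 read made up 55.5% and 56.3% of all lines, so groups with few reads on a gene have no order.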

Other observations

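Outside the TNRC6 genes, peaks of at least 10 reads led by miR-26 and miR-23 in both libraries were found on 4 further genes besides Ttn. Slc38a2, an amino acid transporter, had 35.9 reads in the control library and 25 in the mimic, of which 27.4 and 21.1 were miR-26 and 3.0 and 2.0 miR-23. Sema6d, a semaphorin, had 19.2 and 23.6 reads and more miR-23 (10.7 and 14.8) than miR-26 (5.51 and 5.18). Tnxb, an extracellular matrix glycoprotein, had 17.5 and 17.9 reads, and Rap1gds1, an exchange factor for small GTPases, 13.9 and 13.3. Tnks2, the gene whose seed group profile was most like that of Tnrc6a, had 36.8 reads at such a peak in the control, 14.9 of miR-26 and 14.6 of miR-23. None of these 5 genes was among the 29 whose 3′UTR held both seed matches within 50 nt.

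Of these 29 genes, the miR-23 match followed the miR-26 match in 18, the TNRC6 genes included. The largest peak led by miR-26 ahead of miR-23 in the control was on Klhl41, a gene of striated muscle, with 243 reads, of which 202 were miR-26 and 6.17 miR-23, a far more uneven mixture than on Tnrc6a.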
